A study of Caenorhabditis elegans with 12 samples.

Results

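RNA from whole wild-type C. elegans at day 7 (D7) of adulthood was compared with RNA from wild-type animals at day 1 (D1). The members are the 3 libraries whose titles name the wild type and D7 and the 3 that name the wild type and D1, 6 of the 12 libraries of the series. The other 6 carry the label *sams-1*, the gene of an enzyme that makes S-adenosylmethionine, with a wild-type genotype and RNA interference as their treatment in the labels, while the study's tables describe *sams-1*(lof), a loss-of-function mutant, for these comparisons. The study asked how gene expression changes as animals with and without *sams-1* grow older, and the wild type serves there as the control. Both groups used here have a wild-type genotype and a control treatment in their labels, are given no other allele or agent, and were grown on agar plates with HT115 bacteria, the E. coli strain used to feed RNA interference clones. D7 and D1 are the only difference that the labels give between them. The same protocol text, which speaks of young adults, stands for both ages. How offspring were kept apart from the D7 adults was not found in the text used here. The study calls its triplicates independent, and they carry the numbers 1, 3 and 5, which are written below in that order.

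Adult hermaphrodites of C. elegans make a limited stock of sperm before they switch to oocytes, so self-fertile egg laying ends early in adult life. Somatic cells no longer divide in the adult, the last cuticle has already been laid down, and the intestine takes over yolk making, fat storage, digestion and much of the defence against swallowed bacteria. Insulin-like signalling through the receptor DAF-2 holds back the transcription factor DAF-16, whose known targets include genes for lysozymes, metallothionein, ferritin and catalases.

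The 6 libraries held 4505376 to 7568388 expected counts, the read numbers per gene that the authors' software estimated. Levels are given below as CPM, counts scaled to a common library size with TMM factors, which set the bulk of genes to equal level in all libraries. CPM compares libraries for 1 gene, and TPM, which allows for length, is used where genes are compared with each other. D7 libraries varied less among themselves, with a median SD over genes of 0.133 on the log2 scale, against 0.289 at D1. D1 replicate 5 stood farthest from the D7 libraries, with correlations of log2 CPM across genes of 0.848 to 0.867, against 0.921 to 0.931 for D1 replicate 1. It was also the shallowest of the 6.

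At D7, 365 genes were higher and 270 were lower than at D1, of 10776 tested, where a call required a change of 2-fold or more and an adjusted p below 0.01 in edgeR's quasi-likelihood test. These are 3.39% and 2.51% of the genes tested. With no threshold on the fold, 415 genes (3.85%) were higher and 325 (3.02%) lower, and these 2 shares are the background for the edgeR calls in every gene group below. For counts at an unadjusted p below 0.05 the background is 18.1% higher and 18.8% lower, and for DESeq2 at an adjusted p below 0.01 it is 7.90% higher and 8.30% lower. The D7 and D1 libraries did not overlap for any of the 635 genes past 2-fold, and of all genes tested 22.3% were higher and 20.7% lower without overlap. The changes were often large. Of the genes higher, 256 changed at least 4-fold and 146 at least 8-fold, and of the genes lower 182 and 93 did so. Over all genes, the median change was -0.0047 on the log2 scale.

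The number of calls changed when 1 library was left out, and it fell to a similar level whichever D7 library that was. Without D7 replicate 1, 3 or 5, the genes higher numbered 58, 46 and 55, and those lower 39, 32 and 43. Without D1 replicate 1, 3 or 5, they numbered 600, 192 and 241 higher and 846, 223 and 171 lower. Leaving out a D7 library leaves 2 in the group that varied least. edgeR's common estimate of the spread between replicates was 0.226 with all 6 libraries, and 0.314, 0.316 and 0.315 without D7 replicates 1, 3 and 5. The part of this in the calls lost was not tested. All 635 genes kept their direction in each of the 6 fits with 1 library left out. Of 107 called genes that the naming rule or the text takes up, 21 stayed past the threshold in every one of them. They are *lys-7*, *thn-2*, *abf-2*, *cpt-3*, *cpr-3*, *ttr-45*, *ttr-51* and F55G11.4 among those higher and *sams-1*, *pmt-2*, *acdh-1*, *acdh-2*, *ech-6*, *nhr-114*, *elo-6*, *col-19*, *col-124*, *phat-4*, *ifc-1*, *sri-40* and *abhd-3.2* among those lower.

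**Figure D1:**
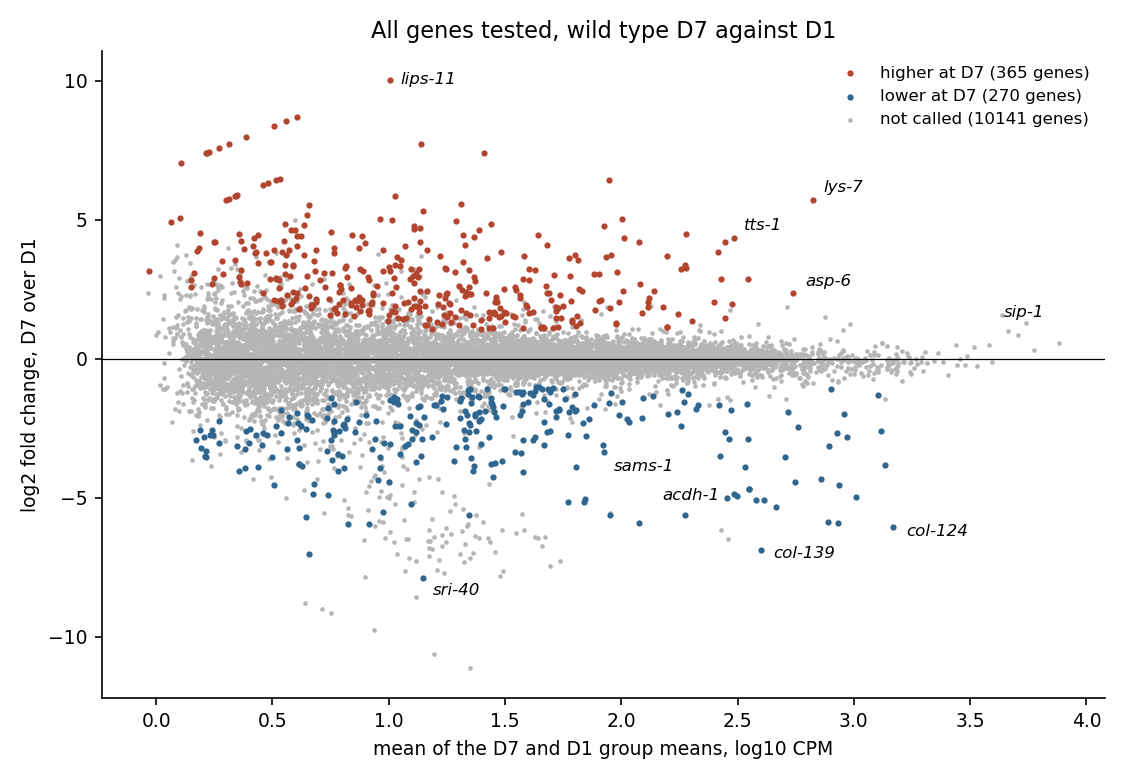
Each point is 1 of 10776 genes tested in wild type, with the mean of the D7 and D1 group means in log10 CPM on the x axis and the log2 fold change of D7 over D1 on the y axis. The 365 genes higher at D7 at least 2-fold and the 270 lower at least 2-fold are coloured where the adjusted p was below 0.01. Labelled genes include *lys-7*, at 5.70, and *col-124*, at -6.06.

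Among genes with a symbol of letters, a hyphen and a number, such as *lys-7*, the largest increases included lysozyme, thaumatin, ferritin and metallothionein genes. *lys-7*, a lysozyme gene and known DAF-16 target, stood at 1513, 1338 and 1069 CPM at D7, against 35.04, 16.9 and 23.02 CPM at D1 (log2 fold change 5.70, SE 0.30, adjusted p = 9.85e-05). All D7 libraries exceeded all D1 libraries, and the mean was 52.3 times as high. *thn-2*, which encodes a thaumatin-like protein of the defence response, stood at 196, 184 and 208 CPM at D7, against 8.42, 4.99 and 3.68 CPM at D1 (log2 fold change 5.04, SE 0.24, adjusted p = 9.60e-05). Its lowest D7 library lay far above its highest D1 library. *abf-2*, which encodes an antibacterial peptide, stood at 19.99, 12.28 and 20.97 CPM at D7, against 0.276, 0.483 and 0.921 CPM at D1 (log2 fold change 5.05, SE 0.45, adjusted p = 5.66e-04).

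*lips-11*, a lipase-like gene, had no count in any D1 library and 423 counts at D7, spread as 29.7, 18.7 and 12.4 CPM. Set against a floor of 3 counts over the D1 group, it was at least 121-fold higher at D7. *ftn-1*, a ferritin gene, stood at 39.1, 26.2 and 55.1 CPM at D7, against 1.52, 0 and 0.921 CPM at D1, and *mtl-1*, a metallothionein gene, stood at 46.7, 46.9 and 66.9 CPM at D7, against 3.31, 1.45 and 0.230 CPM at D1. Their log2 fold changes were 5.56 (SE 0.67) and 4.87 (SE 0.53). The 2 are stores for iron and for other metals, and neither had overlapping groups. *tts-1*, a long noncoding RNA, stood at 550.1, 543 and 650.4 CPM at D7, against 52.6, 18.5 and 12.199 CPM at D1 (log2 fold change 4.35, SE 0.48, adjusted p = 0.00140), with D1 replicate 1 the highest of its group.

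Other leading genes encode enzymes and secreted peptides. *cpt-3*, of the carnitine palmitoyltransferase family that carries fatty acids into mitochondria, stood at 25.3, 14.7 and 34.1 CPM at D7, against 1.24, 0.644 and 0.921 CPM at D1 (log2 fold change 4.68, SE 0.43, adjusted p = 7.45e-04). Its relative *cpt-4* stood at 13.9, 6.44 and 12.4 CPM at D7, against 0.690, 0.322 and 0.230 CPM at D1, and changed by 4.57 on the log2 scale. *comt-4*, of the catechol-O-methyltransferase family, stood at 11.3, 11.8 and 36.9 CPM at D7, against 0.276, 1.45 and 0 CPM at D1, with D7 replicate 5 apart from the other D7 libraries. *dhs-26*, a short-chain dehydrogenase gene, changed by 5.31 (SE 0.83), but its exons overlap those of ZK816.1 and reads of the 2 genes cannot be told apart here. *ptr-22*, a patched-related gene, and *hch-1*, which encodes a protease that acts in hatching, changed by 4.44 and 4.65. *ins-19*, which encodes an insulin-like peptide, stood at 22.5, 23.2 and 28.96 CPM at D7, against 1.38, 0.322 and 0.921 CPM at D1 (log2 fold change 4.78, SE 0.41, adjusted p = 5.27e-04).

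**Figure D2:**
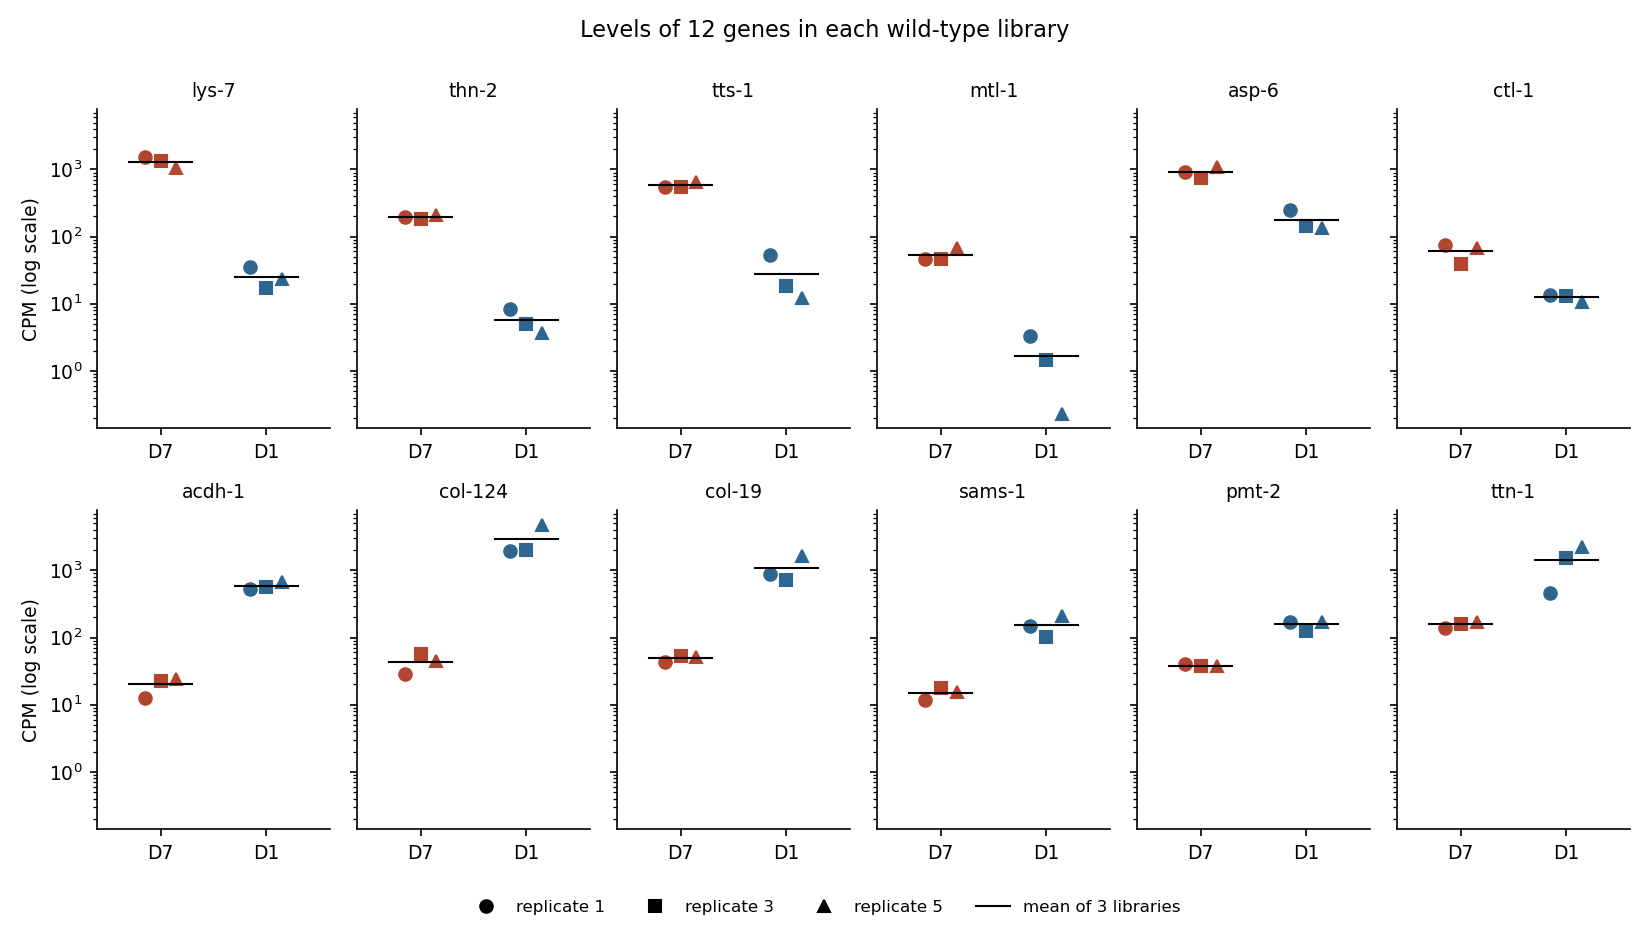
Each panel is 1 gene, with D7 left of D1, CPM on a log axis, 1 symbol for each library by replicate number and a line at the mean of 3. The upper 6 genes were higher at D7 and the lower 6 were lower, and the D7 and D1 libraries do not overlap in any of the 12 panels.

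Defence genes against bacteria and fungi were often higher at D7, beside the background of 3.85%. In the list of CUB-like, dod and irg genes, secreted proteins of the intestinal response to pathogens together with thaumatins and antibacterial factors, 7 of 17 tested members were higher and 0 lower by edgeR, and DESeq2 and the unadjusted p below 0.05 also gave 0 lower. The median log2 fold change was 2.11. Their summed level was 979, 819 and 784 CPM at D7, against 259, 224 and 253 CPM at D1. *dod-19*, the member with the most counts, stood at 466, 309.7 and 253 CPM at D7, against 54.4, 25.9 and 26.5 CPM at D1 (log2 fold change 3.25, SE 0.35, adjusted p = 0.00122). The number higher was 2, 2 and 3 without D7 replicates 1, 3 and 5, and 8, 5 and 7 without D1 replicates 1, 3 and 5.

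Of 9 lysozyme genes tested, which break bacterial cell walls, 5 were higher: *lys-7*, *lys-8* and 3 others, *lys-1*, *ilys-2* and *ilys-3*, that are named because they complete the count. The summed lysozyme level was 2097, 1854 and 1743 CPM at D7, against 412, 458 and 321 CPM at D1. *lys-8* stood at 141, 99.1 and 149.8 CPM at D7, against 44.6, 25.9 and 20.5 CPM at D1 and changed by 2.08 (SE 0.29), although its exons overlap those of C17G10.13. The invertebrate-type lysozyme gene *ilys-5* did not pass the test, at 209.9, 209 and 255 CPM at D7, against 204, 335 and 180.0 CPM at D1, with the groups overlapping. *ilys-2* had no count at D1 and 149 counts at D7, at least 42.5-fold higher over a floor of 3 counts. The number of lysozyme genes higher was 1, 1 and 1 without D7 replicates 1, 3 and 5, and 6, 1 and 2 without D1 replicates 1, 3 and 5.

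Among C-type lectins, secreted proteins that bind sugars and often change with infection, 12 of 56 tested were higher. Another 2, *clec-48* and *clec-223*, were lower, a share near the background of 3.02%. *clec-62* stood at 49.1, 46.0 and 52.1 CPM at D7, against 5.66, 2.09 and 3.91 CPM at D1 (log2 fold change 3.64, SE 0.32, adjusted p = 5.66e-04). *clec-266* stood at 108, 144 and 101 CPM at D7, against 13.2, 7.89 and 4.14 CPM at D1 (log2 fold change 3.75, SE 0.35, adjusted p = 7.45e-04), with exons that overlap those of *kqt-1*. The 2 lectin genes with the most counts, *clec-87* and *clec-88*, changed by 0.24 and 0.08 with overlapping groups and did not pass. The number of lectin genes higher was 4, 2 and 4 without D7 replicates 1, 3 and 5, and 18, 9 and 9 without D1 replicates 1, 3 and 5.

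Saposin-like genes, whose pore-forming products kill bacteria in the gut, also split, with 4 of 16 higher and 3 lower. *spp-14*, the member with the most counts, stood at 364, 336 and 375 CPM at D7, against 149, 234.5 and 156 CPM at D1 (log2 fold change 0.99, SE 0.18, adjusted p = 0.00836) and *spp-5* at 329, 286 and 336 CPM at D7, against 146, 185 and 155 CPM at D1 (log2 fold change 0.97, SE 0.12, adjusted p = 0.00220). Neither had overlapping groups. *spp-4* went the other way, at 3.66, 3.00 and 4.99 CPM at D7, against 30.6, 47.3 and 27.4 CPM at D1 (log2 fold change -3.17, SE 0.31, adjusted p = 9.11e-04), as did *spp-23*, which changed by -2.74. The others called were *spp-2* and *spp-8*, higher, and *spp-17*, lower. None of the 4 higher was called without a D7 library, and 6, 3 and 2 were higher without D1 replicates 1, 3 and 5.

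Antimicrobial peptide genes of the epidermis also changed in both directions. Of 14 tested, 5 were higher, among them *nlp-29* at 17.9, 18.6 and 29.7 CPM at D7, against 4.14, 5.31 and 6.21 CPM at D1 and *nlp-31* at 10.1, 7.04 and 13.3 CPM at D7, against 0.690, 0.966 and 2.07 CPM at D1, and 2 were lower. *nlp-29* and *nlp-31* lie in a cluster of related short genes, so reads between its members are uncertain. *nlp-24*, which led the lower genes, stood at 1.27, 0.599 and 0.571 CPM at D7, against 4.55, 18.2 and 28.8 CPM at D1 (log2 fold change -4.35, SE 0.74, adjusted p = 0.00695), with exons that overlap those of *glb-15*. Its D1 replicate 1 was the lowest of its group and replicate 5 the highest. The others called were *nlp-34*, *cnc-2* and *cnc-4*, higher, and *nlp-33*, lower. The number higher in the list was 0, 0 and 0 without D7 replicates 1, 3 and 5, and 5, 2 and 5 without D1 replicates 1, 3 and 5.

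Several protease genes rose. Of 21 aspartyl and cysteine protease genes tested, 8 were higher and 1, *asp-2*, was lower. *asp-6*, an aspartyl protease gene, stood at 906, 751 and 1093 CPM at D7, against 251, 144 and 134 CPM at D1 (log2 fold change 2.38, SE 0.26, adjusted p = 0.00140). *asp-17* stood at 25.8, 38.5 and 13.8 CPM at D7, against 2.07, 1.61 and 0.230 CPM at D1, and *cpr-3*, a cathepsin B-like gene, stood at 88.98, 63.3 and 60.9 CPM at D7, against 5.93, 6.92 and 3.22 CPM at D1 (log2 fold change 3.69, SE 0.29, adjusted p = 3.76e-04). *cpr-6*, another cathepsin B-like gene with many counts, stood at 489.7, 440.0 and 418 CPM at D7, against 321, 231 and 217 CPM at D1 and missed the threshold (adjusted p = 0.0130). The number higher was 3, 2 and 3 without D7 replicates 1, 3 and 5, and 10, 6 and 7 without D1 replicates 1, 3 and 5.

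Some genes of oxidant and metal defence were higher at D7. Of 18 antioxidant enzyme genes tested, only the catalase genes *ctl-1* and *ctl-2* were higher and 0 were lower, with 2 lower at an unadjusted p below 0.05 and 1 by DESeq2. *ctl-1* stood at 75.8, 39.1 and 68.2 CPM at D7, against 13.7, 13.04 and 10.6 CPM at D1 (log2 fold change 2.29, SE 0.27, adjusted p = 0.00174) and *ctl-2* at 67.4, 49.9 and 67.9 CPM at D7, against 25.7, 12.9 and 12.4 CPM at D1 (log2 fold change 1.85, SE 0.30, adjusted p = 0.00573). The 2 lie next to each other and are near copies, and *ctl-2* also overlaps Y54G11A.7, so their separate levels are uncertain. The peroxiredoxin gene *prdx-2* and the superoxide dismutase gene *sod-1* changed by 0.14 and -0.03, with overlapping groups. *mtl-1* and the metal-responsive *numr-1*, named because it completes a count of 2, were the members called among 9 metallothionein and cadmium response genes. At an unadjusted p below 0.05, 5 of these 9 were higher and 0 lower, beside 18.1% and 18.8% of all genes. DESeq2 called 3 higher and 0 lower, beside 7.90% and 8.30%. *mtl-2*, the other metallothionein gene, stood at 19.6, 29.5 and 72.0 CPM at D7, against 34.4, 20.6 and 8.29 CPM at D1 and did not pass. Neither catalase gene was called without D7 replicate 1 or 5, nor *mtl-1* and *numr-1* without any 1 D7 library.

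Detoxification families differed in the direction of their calls. Cytochrome P450 genes, whose enzymes oxidize foreign and fatty compounds, had 6 of 44 tested members higher and 0 lower. At an unadjusted p below 0.05, 24 were higher and 4 lower, beside 18.1% and 18.8% of all genes. DESeq2 called 16 higher and 1 lower, beside 7.90% and 8.30%. *cyp-35B1* stood at 16.6, 21.1 and 15.3 CPM at D7, against 0.690, 1.29 and 1.61 CPM at D1 (log2 fold change 3.91, SE 0.35, adjusted p = 6.17e-04) and *cyp-13A5* at 70.4, 23.7 and 25.7 CPM at D7, against 2.62, 1.13 and 1.61 CPM at D1, with D7 replicate 1 the highest. Glutathione S-transferase genes, which couple toxic compounds to glutathione, had 6 of 23 lower and 0 higher. At an unadjusted p below 0.05, 10 were lower and 4 higher, and DESeq2 called 6 lower and 0 higher. *gst-28* stood at 2.25, 1.198 and 1.28 CPM at D7, against 9.24, 7.08 and 13.8 CPM at D1 and *gst-26* at 1.97, 1.80 and 3.42 CPM at D7, against 11.3, 11.3 and 10.1 CPM at D1. The 2 members with the most counts, *gst-1* and *gst-7*, changed by 0.10 and 0.17 with overlapping groups. Of 42 UDP-glucuronosyltransferase genes, 1 was higher, *ugt-25* at 3.25, and 2 were lower, *ugt-47* at -1.80 and *ugt-53* at -2.60. P450 genes higher numbered 2, 1 and 1 without D7 replicates 1, 3 and 5, and 14, 5 and 5 without D1 replicates 1, 3 and 5. Transferase genes lower numbered 0, 0 and 0 without D7 replicates 1, 3 and 5, and 6, 3 and 4 without D1 replicates 1, 3 and 5.

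Few protein quality control genes passed. *sqst-1*, the autophagy receptor gene for tagged cargo, stood at 123, 106 and 113 CPM at D7, against 30.2, 13.8 and 19.3 CPM at D1 (log2 fold change 2.42, SE 0.26, adjusted p = 0.00117) and was the 1 member higher of 26 autophagy and lysosome genes. In this list 11 were higher at an unadjusted p below 0.05, 3 by DESeq2, and 8 by edgeR without D1 replicate 1. None was lower by any of these. *lgg-1*, which encodes an autophagosome protein, stood at 265.6, 260.4 and 234 CPM at D7, against 207, 219 and 217 CPM at D1 (adjusted p = 0.0992) and *hlh-30*, a transcription factor gene of autophagy, at 50.97, 58.6 and 60.8 CPM at D7, against 52.01, 35.2 and 42.6 CPM at D1 (adjusted p = 0.132). Both missed the threshold. Of 17 cytosolic heat shock genes, *sip-1* was higher and *hsp-25* and *hsp-110*, which completes the count, were lower. *sip-1*, a small heat shock protein gene of oocytes and embryos, stood at 5996, 6310 and 5974 CPM at D7, against 3373, 3054 and 2780 CPM at D1 (log2 fold change 0.99, SE 0.12, adjusted p = 0.00212), and in TPM, which allows genes of different length to be compared, it averaged 13440 TPM at D7 and 6003 TPM at D1, the highest of all genes tested at D7. *hsp-25* stood at 32.1, 39.2 and 35.8 CPM at D7, against 80.8, 59.2 and 88.6 CPM at D1, with exons that overlap those of *ipp-5*, and the HSP70 gene *hsp-1* changed by -0.21 with overlapping groups. Of 33 proteasome genes, *rpn-6.2* alone was lower (log2 fold change -1.14, SE 0.19, adjusted p = 0.00617). Of 22 genes of the endoplasmic reticulum stress response, 0 passed in either direction by edgeR or DESeq2, and 3 were higher at an unadjusted p below 0.05. *sqst-1*, *sip-1*, *hsp-25* and *rpn-6.2* were not called without any 1 D7 library.

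A few insulin-like peptide genes and 1 gene of the insulin pathway list were called. *ins-7*, which encodes a peptide that activates the insulin receptor, stood at 8.73, 10.2 and 4.14 CPM at D7, against 0, 0.644 and 0.460 CPM at D1 (log2 fold change 4.41, SE 0.72, adjusted p = 0.00607), and with *ins-19* and *ins-2*, named because it completes the count, it made 3 of 8 tested members higher. None was lower, and DESeq2 and the unadjusted p below 0.05 gave 0 as well. The list holds 39 genes, most of them with too few counts to be tested. Over the D1 group *ins-7* had 6 counts, *ins-19* had 16 and *ins-2* had 1, so these genes passed the low-count filter through D7. Their share among the tested members was thus partly set by that filter. *pqm-1*, a zinc finger transcription factor gene, stood at 21.7, 21.7 and 19.3 CPM at D7, against 7.45, 3.86 and 5.98 CPM at D1 (log2 fold change 1.85, SE 0.28, adjusted p = 0.00430). It was the 1 member higher of 20 insulin pathway and longevity genes, a share near the background of 3.85%. In that list 9 were higher and 0 lower at an unadjusted p below 0.05, beside 18.1% and 18.8% of all genes. DESeq2 called 3 higher and 0 lower, beside 7.90% and 8.30%. Without D7 replicate 1, 3 or 5, 1, 0 and 1 insulin-like peptide genes were called, and *pqm-1* was not.

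**Figure D3:**
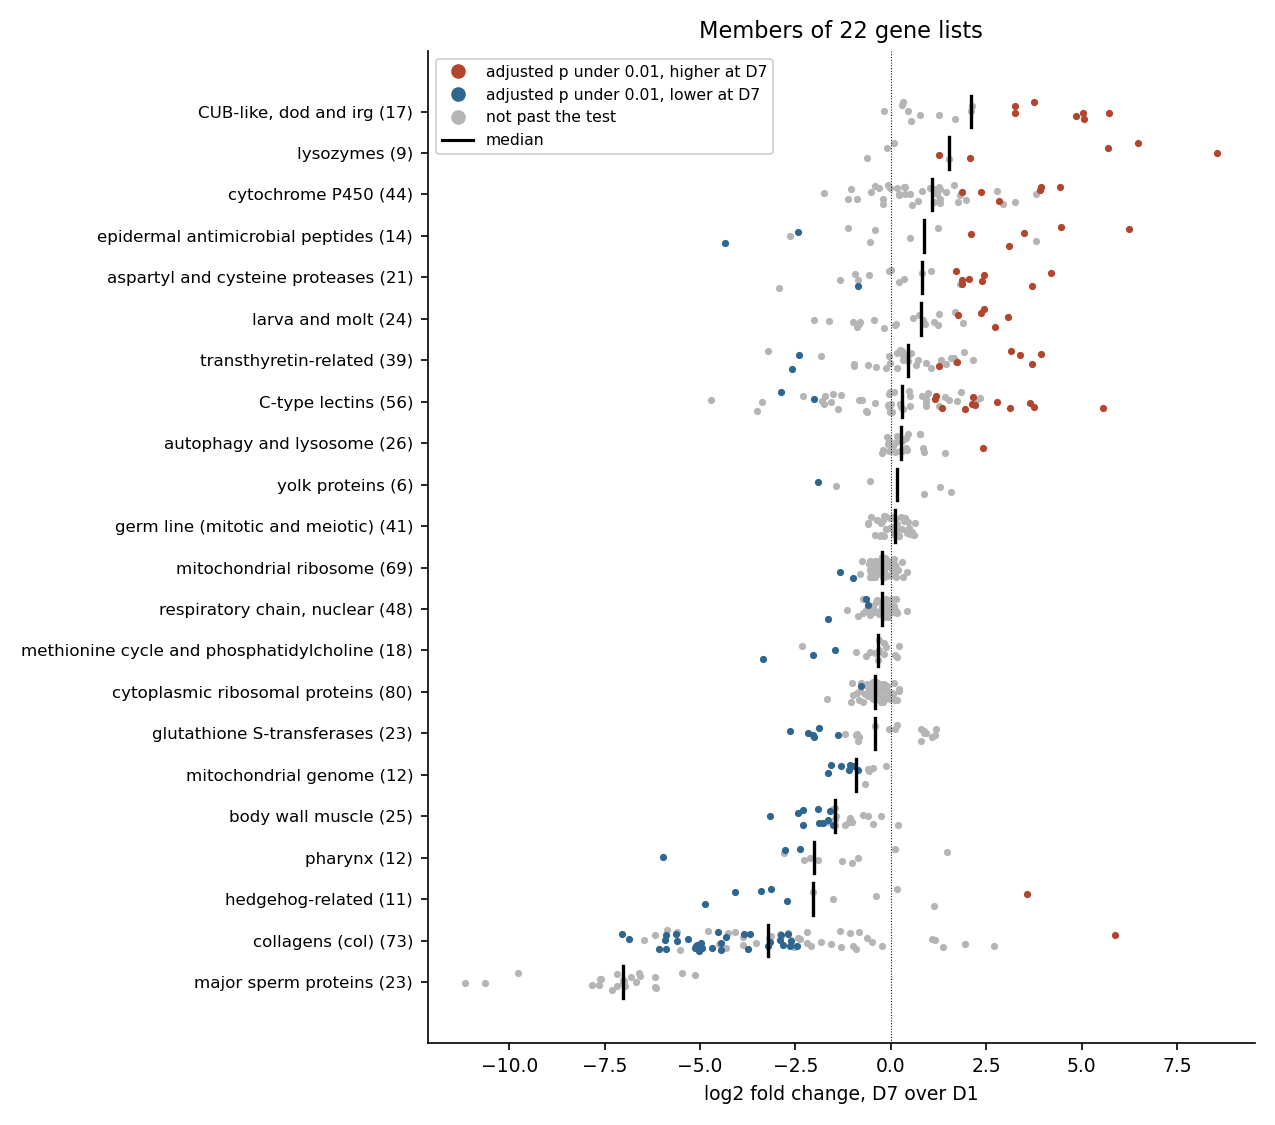
Each row is 1 of 22 gene lists with its number of tested members, each point is 1 member at its log2 fold change of D7 over D1, and the black bar is the median. Members past an adjusted p of 0.01 are coloured by direction, and the lists run from a median of 2.11 for the CUB-like, dod and irg genes to -7.01 for the major sperm proteins, of which none is coloured.

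Cuticle collagen genes were lower at D7. Of 73 tested members of the col family, which encode the collagens of the cuticle, 32 were lower and 1 was higher, with a median log2 fold change of -3.23. Their summed level was 1685, 2368 and 2269 CPM at D7, against 29559, 18350 and 43567 CPM at D1. The D1 sum was thus highest in replicate 5 and lowest in replicate 3, and each D1 library exceeded every D7 library several times over. The lower direction of the median held under each scaling tried, and it was also seen when all 12 libraries were fitted.

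*col-124*, the collagen gene with the most counts at D1, stood at 29.005, 56.5 and 45.1 CPM at D7, against 1917, 2000 and 4818 CPM at D1 (log2 fold change -6.06, SE 0.48, adjusted p = 3.96e-04), with exons that overlap those of *qns-1*. *col-119* stood at 109, 202 and 221 CPM at D7, against 3467, 1308 and 2847 CPM at D1 (log2 fold change -3.84, SE 0.42, adjusted p = 0.00135). *col-19*, the standard marker of the adult cuticle, stood at 42.5, 52.7 and 51.1 CPM at D7, against 874, 713 and 1619 CPM at D1 (log2 fold change -4.45, SE 0.33, adjusted p = 3.37e-04), so its mean at D1 was 21.9 times that at D7. The marker was thus present in all 6 libraries. *col-139* stood at 2.11, 12.0 and 6.13 CPM at D7, against 79.3, 477 and 1806 CPM at D1, with D1 libraries far apart from each other, and *col-94* stood at 0.986, 7.49 and 3.14 CPM at D7, against 133, 154 and 415 CPM at D1. The 1 collagen gene higher, *col-183*, named because it is the only one, had 92 counts at D7 and 1 count at D1. The number of collagen genes lower was 15, 11 and 10 without D7 replicates 1, 3 and 5, and 55, 25 and 29 without D1 replicates 1, 3 and 5. Collagen genes are close relatives of each other, so reads shared between near copies could have been split among them.

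Hedgehog-related genes, which encode secreted proteins of the epidermis, were lower in 5 of 11 tested members and higher in 1. *grd-3* stood at 2.96, 5.54 and 4.14 CPM at D7, against 98.4, 41.2 and 75.5 CPM at D1 (log2 fold change -4.09, SE 0.38, adjusted p = 7.54e-04) and *grd-5* at 6.195, 5.99 and 6.99 CPM at D7, against 83.7, 43.5 and 76.2 CPM at D1 (log2 fold change -3.40, SE 0.28, adjusted p = 4.15e-04). *wrt-10* went the other way, at 16.6, 26.2 and 20.1 CPM at D7, against 2.48, 1.45 and 1.15 CPM at D1 (log2 fold change 3.57, SE 0.35, adjusted p = 9.11e-04). The others lower were *grd-10*, *grd-13* and *grd-14*. The number lower was 1, 0 and 1 without D7 replicates 1, 3 and 5, and 5, 3 and 2 without D1 replicates 1, 3 and 5. Of 12 epidermis markers 2 were higher, *hch-1* and *wrt-10*, and 1 was lower, *grd-10*, named because it completes the count. The cell junction gene *ajm-1* and the adhesion gene *vab-10* changed by 0.10 and 0.06 with overlapping groups. By DESeq2 2 of the markers were higher and 4 lower, and at an unadjusted p below 0.05 3 were higher and 5 lower. The cuticle collagen genes *dpy-4*, *dpy-5* and *dpy-13* and the transcription factor gene *elt-3*, all named after their values were seen, changed by -2.86, -2.93, -2.81 and -0.91 and did not pass in edgeR.

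Genes of the larval cuticle and of molting included members that were higher at D7. Of 24 tested of 28 listed, 5 were higher, namely *fbn-1*, *mlt-11* and 3 named because they complete the count, *noah-1*, *noah-2* and *ptr-4*. None was lower by edgeR or DESeq2, and 3 were lower at an unadjusted p below 0.05. *fbn-1*, which encodes a fibrillin-like matrix protein, stood at 24.8, 23.7 and 18.7 CPM at D7, against 3.17, 5.31 and 1.38 CPM at D1 (log2 fold change 2.73, SE 0.41, adjusted p = 0.00437), with exons that overlap those of *upp-1*. *mlt-11*, a protease inhibitor gene of the molt, stood at 28.02, 24.1 and 16.8 CPM at D7, against 5.52, 4.67 and 2.302 CPM at D1 (log2 fold change 2.43, SE 0.35, adjusted p = 0.00393). The summed level of the list was 403, 442 and 356 CPM at D7, against 268, 191 and 225 CPM at D1. The number higher was 0, 0 and 0 without D7 replicates 1, 3 and 5, and 7, 2 and 5 without D1 replicates 1, 3 and 5. When all 12 libraries were fitted together it was 0. Whether larvae among the D7 adults had a part in this was not tested.

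Muscle genes were lower at D7. Of 25 body wall muscle genes tested, 10 were lower and 0 higher, with 0 higher by unadjusted p below 0.05 and 0 by DESeq2, and the median was -1.48. The summed level was 1715, 1543 and 2043 CPM at D7, against 6109, 3795 and 6811 CPM at D1. *ttn-1*, the titin gene, stood at 141, 159.8 and 173 CPM at D7, against 459, 1538 and 2225 CPM at D1 (log2 fold change -3.16, SE 0.50, adjusted p = 0.00556), with D1 replicate 1 well below the other 2 libraries of its group. *tnt-2*, a troponin T gene, stood at 47.3, 49.3 and 73.5 CPM at D7, against 482, 147 and 289 CPM at D1 (log2 fold change -2.43, SE 0.41, adjusted p = 0.00661). *unc-54*, the main myosin heavy chain gene of this muscle, stood at 258, 226 and 345 CPM at D7, against 1174, 302 and 768 CPM at D1 (log2 fold change -1.44, adjusted p = 0.0489) and did not pass, and its D1 replicate 3 fell inside the D7 range. Muscle genes lower numbered 0, 0 and 0 without D7 replicates 1, 3 and 5, and 10, 14 and 2 without D1 replicates 1, 3 and 5. From whole animals, fewer cells of a type and less RNA in each cell cannot be told apart. Taking this list as the constant instead moves the median of all genes by 1.58 on the log2 scale, so that 8484 genes stand higher and 234 lower at least 2-fold. Relative to that shift, all 107 called genes taken up here keep their direction, and without allowing for it 12 of the 53 called lower would stand above 0. With all 12 libraries in 1 fit the median of all genes moves by 0.11.

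Some members of the pharynx list were lower. Of 12 tested, 3 were lower, *phat-4*, *tnt-3* and *tnc-2*, the last named because it completes the count, and 0 were higher. At an unadjusted p below 0.05, 10 were lower and 1 higher, and DESeq2 called 7 lower and 0 higher. *phat-4*, a pharyngeal gland peptide gene, stood at 0.141, 0.299 and 0.285 CPM at D7, against 13.7, 12.55 and 22.6 CPM at D1 (log2 fold change -5.96, SE 0.44, adjusted p = 3.37e-04). *tnt-3*, a troponin T gene, stood at 14.6, 16.3 and 22.4 CPM at D7, against 87.2, 105 and 177 CPM at D1 (log2 fold change -2.78, SE 0.30, adjusted p = 0.00120). Whether its RNA came from the pharynx or from other muscle was not tested. *pha-4*, the regulator that specifies the pharynx, stood at 2.39, 3.44 and 2.85 CPM at D7, against 5.10, 5.63 and 5.06 CPM at D1 (adjusted p = 0.0623), with no overlap but short of the threshold. The number lower was 1, 1 and 1 without D7 replicates 1, 3 and 5, and 4, 5 and 3 without D1 replicates 1, 3 and 5.

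Few intestine and neuron markers passed. Of 17 intestinal genes, 1 was lower, *act-5*, the actin gene of the microvilli, at 69.4, 54.4 and 64.5 CPM at D7, against 105, 103 and 116 CPM at D1 (log2 fold change -0.78, SE 0.12, adjusted p = 0.00479), and 0 were higher, with 2 higher by unadjusted p below 0.05 and 1 by DESeq2. The call was lost without any 1 D7 library and without D1 replicate 3 or 5. *asp-1*, the member with the highest TPM, stood at 282, 278 and 489 CPM at D7, against 399.5, 352 and 336 CPM at D1 and did not pass. *ifc-1*, an intermediate filament gene outside this list, stood at 0.422, 0.299 and 0.428 CPM at D7, against 15.6, 17.2 and 23.02 CPM at D1 (log2 fold change -5.52, SE 0.34, adjusted p = 1.85e-04). Of 21 neuronal genes 0 passed by edgeR, with 2 higher and 7 lower at an unadjusted p below 0.05 and 0 higher and 2 lower by DESeq2. Their median log2 fold change was -0.55, with 16 members below 0. The 2 members with the most counts were *snb-1*, a synaptic vesicle gene, which changed by 0.02, and *egl-3*, a gene for a protease that processes neuropeptides, which changed by -0.55. *sri-40*, a chemoreceptor-like gene, was among the strongest decreases, at 0, 0.150 and 0.143 CPM at D7, against 21.4, 28.2 and 34.1 CPM at D1. With 2 counts at D7, its D1 level was 279 times as high (95% exact counting interval 76.8 to 2311).

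**Figure D4:**
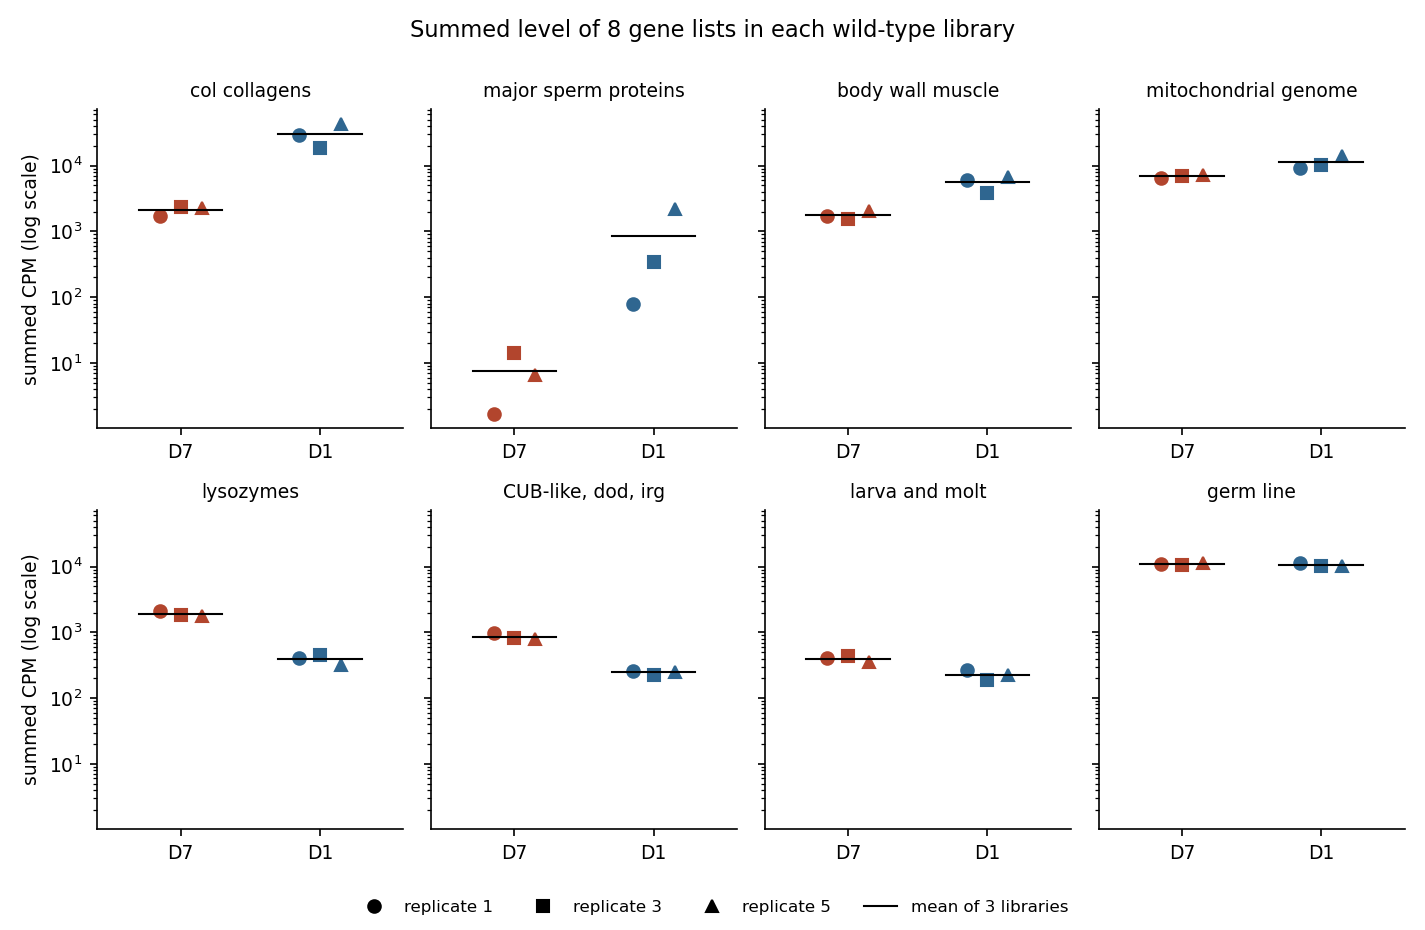
Each panel is the summed CPM of the tested members of 1 gene list on a log axis, with D7 left of D1, 1 symbol for each library and a line at the mean of 3. Collagens, major sperm proteins, body wall muscle and mitochondrial genome stood lower at D7, lysozymes, CUB-like, dod and irg genes and larva and molt genes stood higher, and the germ line list had overlapping groups.

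Some genes of the methionine cycle, phosphatidylcholine synthesis and propionate breakdown were lower at D7. *sams-1*, the S-adenosylmethionine synthase gene the study is about, stood at 11.7, 17.97 and 15.3 CPM at D7, against 149, 102 and 209 CPM at D1 (log2 fold change -3.35, SE 0.29, adjusted p = 5.15e-04), so the wild-type mean at D1 was 10.2 times that at D7. *pmt-2*, whose enzyme adds methyl groups on the way to phosphatidylcholine, stood at 39.8, 37.6 and 37.4 CPM at D7, against 171, 126 and 172 CPM at D1 (log2 fold change -2.03, SE 0.14, adjusted p = 2.65e-04). With *cept-1*, named because it completes the count, they were the 3 members lower of 18 tested, and 0 were higher. At an unadjusted p below 0.05, 9 were lower, beside 18.8% of all genes, and DESeq2 called 4 lower, beside 8.30%. Both gave 0 higher. *sams-1* and *pmt-2* stayed called in each fit with 1 library left out, and *cept-1* in none of the 6.

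The other S-adenosylmethionine synthase genes moved less. *sams-3* stood at 120.1, 149 and 122.1 CPM at D7, against 169, 219 and 224 CPM at D1 (log2 fold change -0.65, adjusted p = 0.0169) and *sams-4* at 196, 192 and 193 CPM at D7, against 245, 230.5 and 245 CPM at D1 (log2 fold change -0.31, adjusted p = 0.0333). Neither passed, although their groups did not overlap. They are near copies of each other, so their separate values are uncertain. *sams-5* had few counts and overlapping groups, at 0.986, 1.95 and 0.856 CPM at D7, against 1.104, 4.67 and 14.04 CPM at D1. *ahcy-1*, which clears S-adenosylhomocysteine, had the highest TPM of the list and changed by -0.34 (adjusted p = 0.119).

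*acdh-1*, whose enzyme opens the propionate shunt used when vitamin B12 is short, stood at 12.7, 22.9 and 24.5 CPM at D7, against 524, 575 and 665 CPM at D1 (log2 fold change -4.87, SE 0.25, adjusted p = 9.85e-05). *acdh-2*, a related acyl-CoA dehydrogenase gene, stood at 1.13, 0.899 and 0.571 CPM at D7, against 38.2, 49.6 and 43.04 CPM at D1 (log2 fold change -5.62, SE 0.28, adjusted p = 9.60e-05). *ech-6*, an enoyl-CoA hydratase gene named because it completes a count of 3 lower among 25 lipid breakdown genes, stood at 118.97, 127 and 132 CPM at D7, against 423, 379 and 406 CPM at D1 (log2 fold change -1.68, SE 0.10, adjusted p = 1.47e-04). The D7 and D1 libraries of these 3 genes did not overlap, and the 3 stayed called whichever library was left out. *lipl-1*, a lysosomal lipase gene and the 1 member higher, also named to complete the count, changed by 3.30.

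The nuclear hormone receptor genes *nhr-68* and *nhr-114* were lower as well. *nhr-68*, whose product turns on the propionate shunt, stood at 3.38, 3.44 and 3.57 CPM at D7, against 16.97, 17.9 and 21.6 CPM at D1 (log2 fold change -2.43, SE 0.23, adjusted p = 8.40e-04). *nhr-114*, whose product responds to methionine cycle flux, stood at 2.39, 3.74 and 4.42 CPM at D7, against 41.1, 34.6 and 49.3 CPM at D1 (log2 fold change -3.56, SE 0.28, adjusted p = 3.78e-04). They were the 2 lower of 132 receptor genes tested, with 3 higher, *nhr-6*, *nhr-11* and *nhr-150*. Both shares lie below the background of 3.02% lower and 3.85% higher. The call of *nhr-68* was lost without any 1 D7 library. *folt-2*, a folate transporter gene, was also among the strongest decreases, at 1.13, 3.00 and 6.99 CPM at D7, against 149, 155 and 97.8 CPM at D1 (log2 fold change -5.17, SE 0.48, adjusted p = 7.49e-04).

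Fatty acid synthesis genes changed in both directions. Of 19 desaturase and elongase genes tested, *elo-5* and *elo-6*, which make branched-chain fatty acids, and *elo-2*, named to complete the count, were lower, and the desaturase genes *fat-3* and *fat-6*, named for the same reason, were higher. *elo-6* stood at 31.8, 37.1 and 41.9 CPM at D7, against 142, 205 and 191 CPM at D1 (log2 fold change -2.27, SE 0.17, adjusted p = 3.37e-04) and *elo-5* at 21.3, 29.2 and 34.2 CPM at D7, against 70.1, 94.5 and 117 CPM at D1 (log2 fold change -1.73, SE 0.24, adjusted p = 0.00320) with exons that overlap those of F41H10.3. *fat-6* stood at 249.6, 192 and 205 CPM at D7, against 111.5, 93.0 and 90.2 CPM at D1 (log2 fold change 1.13, SE 0.13, adjusted p = 0.00181). *fat-2*, the desaturase gene with the highest TPM, stood at 591, 537 and 508 CPM at D7, against 335, 185 and 167 CPM at D1 and missed the threshold (adjusted p = 0.0134). *fat-7*, a desaturase gene that the study uses as a marker of *sams-1* loss, stood at 12.4, 13.2 and 10.3 CPM at D7, against 6.48, 12.23 and 22.3 CPM at D1, with the groups overlapping. Without any 1 D7 library, *elo-6* was the only gene of the list still called.

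Further genes lower at D7 have less certain roles. *abhd-3.2*, of the alpha/beta hydrolase family, stood at 2.96, 2.70 and 2.28 CPM at D7, against 33.9, 43.3 and 52.9 CPM at D1 (log2 fold change -4.02, SE 0.25, adjusted p = 1.85e-04), and *pud-3*, named for a protein that is abundant in *daf-2* mutants, at 1.83, 3.74 and 6.70 CPM at D7, against 194, 162 and 48.8 CPM at D1, with D1 replicate 5 the lowest of its group. *epic-2* stood at 17.5, 29.2 and 32.1 CPM at D7, against 601, 388 and 1050 CPM at D1 (log2 fold change -4.69, SE 0.42, adjusted p = 5.90e-04) and *sdz-24* at 0, 1.05 and 0.856 CPM at D7, against 13.1, 31.7 and 28.1 CPM at D1. *pqn-74* was the 1 member lower of 42 abu and pqn genes. Transthyretin-related genes, which encode small secreted proteins, had 6 of 39 higher and 2 lower, *ttr-14* and *ttr-31*. *ttr-51* stood at 392, 279 and 357 CPM at D7, against 46.2, 23.02 and 29.5 CPM at D1 (log2 fold change 3.37, SE 0.26, adjusted p = 3.76e-04), with exons that overlap those of JC8.7, and *ttr-45* at 314, 240.3 and 319.5 CPM at D7, against 33.9, 13.4 and 19.1 CPM at D1 (log2 fold change 3.70, SE 0.31, adjusted p = 4.82e-04). The number higher was 2, 2 and 2 without D7 replicates 1, 3 and 5, and 11, 6 and 5 without D1 replicates 1, 3 and 5.

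Several transcripts of the mitochondrial genome were lower at D7. Of its 12 protein-coding genes, 7 were lower and 0 higher, and DESeq2 and the unadjusted p below 0.05 also gave 0 higher. The median log2 fold change was -0.91. Their summed level was 6589, 6952 and 7111 CPM at D7, against 9244, 10191 and 14081 CPM at D1. Each D1 library exceeded each D7 library, with D1 replicate 5 the highest. ND6, which encodes a subunit of complex I, stood at 90.8, 99.3 and 92.9 CPM at D7, against 181, 311 and 342 CPM at D1 (log2 fold change -1.56, SE 0.22, adjusted p = 0.00352), and WBGene00010966, for which the tables give no name, at 166, 169 and 169 CPM at D7, against 390.3, 517 and 663 CPM at D1 (log2 fold change -1.64, SE 0.18, adjusted p = 0.00140). COX3, which encodes a subunit of cytochrome oxidase, stood at 1618, 1711 and 1748 CPM at D7, against 1521, 1620 and 2373 CPM at D1 and did not pass. Neighbouring genes overlap in this compact genome, as ND6 does with WBGene00010958, so reads at their joints are uncertain. The number lower was 0, 0 and 0 without D7 replicates 1, 3 and 5, and 9, 3 and 6 without D1 replicates 1, 3 and 5, and 1 when all 12 libraries were fitted together. The direction of the median held under each scaling relative to the shift of all genes, but not without that allowance when scaled on muscle genes, where 5 members passed as higher.

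Of 48 nuclear respiratory chain genes, 3 were lower, *asg-2*, *cox-6B* and *nuo-6*, the last named to complete the count, and 0 were higher. At an unadjusted p below 0.05, 20 were lower, beside 18.8% of all genes, and 1 was higher. DESeq2 called 8 lower, beside 8.30%, and 0 higher. The median was -0.23. *asg-2*, an ATP synthase subunit gene, stood at 16.9, 19.8 and 18.4 CPM at D7, against 44.97, 65.0 and 62.1 CPM at D1 (log2 fold change -1.64, SE 0.18, adjusted p = 0.00140). *cox-6B*, a cytochrome oxidase subunit gene with exons that overlap those of *nduc-2*, stood at 140.1, 151 and 150.1 CPM at D7, against 222, 224 and 247 CPM at D1 (log2 fold change -0.65, SE 0.09, adjusted p = 0.00320). The ATP synthase genes *atp-1* and *atp-2*, with the most counts of the list, changed by -0.05 and -0.15 with overlapping groups. The number lower was 0, 0 and 0 without D7 replicates 1, 3 and 5, and 9, 3 and 3 without D1 replicates 1, 3 and 5.

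Of 69 mitochondrial ribosome genes, *mrps-23* and *mrpl-24* were lower and 0 higher, and the median was -0.23. At an unadjusted p below 0.05, 28 were lower, beside 18.8% of all genes, and 1 was higher. DESeq2 called 5 lower, beside 8.30%, and 0 higher. Without D1 replicate 1, edgeR called 13 lower and 1 higher. *mrps-23* stood at 9.29, 8.84 and 10.6 CPM at D7, against 19.6, 27.04 and 26.2 CPM at D1 (log2 fold change -1.34, SE 0.22, adjusted p = 0.00572) and *mrpl-24*, whose exons overlap those of C09D4.1, at 28.7, 28.6 and 28.2 CPM at D7, against 47.5, 63.6 and 60.5 CPM at D1. Both calls were lost without any 1 D7 library and without D1 replicate 3 or 5. Of the mitochondrial genes the study itself measured, *tomm-20*, an import receptor gene, stood at 72.5, 79.4 and 70.8 CPM at D7, against 73.7, 61.97 and 58.2 CPM at D1 (adjusted p = 0.281), *tin-13*, another import gene, at 32.9, 37.4 and 40.7 CPM at D7, against 41.7, 43.9 and 50.2 CPM at D1 (adjusted p = 0.188), and *mrpl-18* at 52.7, 50.5 and 53.2 CPM at D7, against 47.04, 41.7 and 36.4 CPM at D1 (adjusted p = 0.129). Y111B2A.2, which the study pairs with the human cytochrome oxidase subunit COX6C, came closest, at 119.4, 115.2 and 108 CPM at D7, against 81.5, 86.4 and 87.7 CPM at D1 (log2 fold change 0.42, adjusted p = 0.0156), higher at D7 without overlap. *hsp-6*, the mitochondrial HSP70 gene, stood at 1074, 969 and 1063 CPM at D7, against 861, 579 and 557 CPM at D1 (log2 fold change 0.64, adjusted p = 0.0384) and *hsp-60*, the mitochondrial chaperonin gene, at 456, 405 and 533 CPM at D7, against 653, 523 and 541 CPM at D1 (adjusted p = 0.160). None of these 6 passed in edgeR. By DESeq2, *hsp-6* (adjusted p = 0.00411) and Y111B2A.2 (adjusted p = 0.00793) were below 0.01 and the others were not. Of 12 mitochondrial chaperone and protease genes 0 passed by edgeR, with 2 higher and 1 lower at an unadjusted p below 0.05. DESeq2 called 1 of them higher, *hsp-6*.

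Ribosomal protein genes changed by small steps. Of 80 tested, *rps-17* alone was lower, at 438, 457 and 454 CPM at D7, against 668, 772 and 899.5 CPM at D1 (log2 fold change -0.79, SE 0.13, adjusted p = 0.00556), and 0 were higher, a count that DESeq2 and the unadjusted p below 0.05 shared. At an unadjusted p below 0.05, 55 were lower, beside 18.8% of all genes, and DESeq2 called 30 lower, beside 8.30%. The median log2 fold change was -0.42 and the summed level was 70121, 71851 and 73755 CPM at D7, against 85066, 85456 and 98774 CPM at D1. D1 replicate 5 was the highest for these too, and without D1 replicate 1 edgeR called 43 lower. By TPM, *rps-25* averaged 6773 TPM at D7 and 8226 TPM at D1, and *rpl-39* 4295 TPM at D7 and 5655 TPM at D1. *dct-16*, named for its control by DAF-16, stood at 341, 322 and 419 CPM at D7, against 981, 1769 and 1598 CPM at D1 (log2 fold change -2.01, SE 0.23, adjusted p = 0.00154) and in TPM averaged 1825 TPM at D7 and 6396 TPM at D1. The elongation factor gene *eef-1A.1* stood at 9149, 8946 and 9356 CPM at D7, against 9068, 4324 and 4985 CPM at D1 and did not pass, with D1 replicate 1 inside the range of the D7 libraries.

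Almost no germ line or oocyte gene was called. Of 41 germ line genes 0 passed by edgeR, with 11 higher and 5 lower at an unadjusted p below 0.05, beside 18.1% and 18.8% of all genes, and 4 higher and 0 lower by DESeq2. Their summed level was 11050, 10707 and 11269 CPM at D7, against 11377, 10266 and 10258 CPM at D1. *gld-1*, a translational regulator of the germ line, stood at 1071, 992 and 1031 CPM at D7, against 1120, 939.9 and 985 CPM at D1 (log2 fold change 0.02, SE 0.11). Of 30 oocyte, eggshell and maternal RNA-binding genes, *cav-1*, the caveolin gene, was higher at 116, 162 and 120.0 CPM at D7, against 36.3, 33.2 and 21.9 CPM at D1 (log2 fold change 2.11, SE 0.21, adjusted p = 9.63e-04), and 0 were lower, with 2 lower by unadjusted p below 0.05 and 0 by DESeq2. *cbd-1*, an eggshell gene, stood at 3666, 3886 and 3757 CPM at D7, against 4936, 3978 and 3313 CPM at D1 and did not pass. *cav-1* was not called without D7 replicate 3 or 5. The zygotic embryo list holds 22 genes, of which only 7 had enough counts to be tested. Of these 0 passed by edgeR, with 2 higher and 2 lower at an unadjusted p below 0.05 and 1 higher by DESeq2. Their summed level was 453, 478 and 451 CPM at D7, against 448, 427 and 412 CPM at D1. Much of it came from *lin-26*, with means of 210 CPM at D7 and 151 CPM at D1, and *pal-1*, with 156 and 188 CPM. The sum is thus no measure of the list as a whole.

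Major sperm protein transcripts were few at D7. Of 31 major sperm protein genes, which encode the cytoskeletal protein of nematode sperm, 23 were tested. They summed to 1.69, 14.4 and 6.56 CPM at D7, against 77.9, 345 and 2157 CPM at D1. Every D1 library exceeded every D7 library, but the D1 libraries differed among themselves, with replicate 1 the lowest and replicate 5 the highest. Of these genes 0 passed by edgeR, while 23 were lower at an unadjusted p below 0.05, 23 by DESeq2, and 23 when all 12 libraries were fitted together. Without D1 replicate 1, edgeR called 23 as well, and without D1 replicate 5 it called 1. With so few counts at D7, the tested members passed the low-count filter through their D1 level. A shared lower direction among them was thus partly set by that filter, and the shares over all genes are no background for it. *msp-31* stood at 0.563, 1.65 and 0.856 CPM at D7, against 6.21, 33.96 and 185 CPM at D1 (log2 fold change -6.17, SE 1.31, adjusted p = 0.0166). These genes are near copies of each other, so counts of single members are uncertain. The 9 tested members of a separate list of sperm markers summed to 149, 158 and 163 CPM at D7, against 192, 221 and 435 CPM at D1, and their median log2 fold change was -0.85. Of them 0 passed by edgeR, while 6 were lower at an unadjusted p below 0.05 and 4 by DESeq2. The 2 with the most counts, *spe-39* and *spe-44*, stood at 106, 107 and 109.8 CPM at D7, against 121, 119.6 and 116 CPM at D1 and at 22.1, 29.5 and 28.4 CPM at D7, against 37.9, 44.7 and 37.5 CPM at D1. D1 replicate 5 was thus the highest library for the sperm, collagen, muscle, mitochondrial genome and ribosomal protein sums, and the part of this difference among D1 libraries in the changes above was not tested.

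Of the yolk protein genes, made by the intestine for the oocytes, 1 was called. *vit-6* stood at 8735, 7200 and 7499 CPM at D7, against 5299, 2266 and 2111 CPM at D1 (log2 fold change 1.28, adjusted p = 0.0348) and *vit-2* at 6715, 6144 and 6856 CPM at D7, against 5352, 2974 and 2563 CPM at D1 (log2 fold change 0.86, adjusted p = 0.0535). *vit-5* and *vit-3*, named after their values were seen, changed by 1.56 (adjusted p = 0.0139) and -1.45 (adjusted p = 0.0159). These 4 missed the threshold, and DESeq2 called 3 of the list higher and 2 lower. *vit-1* was lower, at 207, 189 and 264 CPM at D7, against 1299, 638 and 522 CPM at D1 (log2 fold change -1.90, SE 0.33, adjusted p = 0.00819), and was the 1 member called of 6. It is a near copy of *vit-2*, and *vit-3*, *vit-4* and *vit-5* are near copies of each other, so reads between them are uncertain. The call of *vit-1* was lost without any 1 D7 library and without D1 replicate 3. The genes often taken as constant were *act-1*, an actin gene, at 519, 528 and 578 CPM at D7, against 1009, 342 and 699.7 CPM at D1, and *ama-1*, the RNA polymerase II large subunit gene, at 352, 366 and 380.1 CPM at D7, against 319.8, 241 and 250.4 CPM at D1 (log2 fold change 0.44, adjusted p = 0.0441). Neither passed, and *ama-1* was higher without overlap.

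By chromosome, the share of tested genes higher at least 2-fold ran from 1.55% on chromosome I and 1.96% on III to 4.53% on IV and 5.03% on V, with 3.78% on II and 3.51% on X. The share lower ran from 1.02% on I and 1.14% on III to 3.94% on V and 4.25% on X, with 2.41% on II and 2.32% on IV. Chromosome X thus had more genes lower than higher, and the other nuclear chromosomes more higher than lower. On the mitochondrial genome 5 of 14 genes tested were lower. These are shares over genes and were given no test.

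A change with age that differed between wild type and the libraries labelled *sams-1* was called for few genes. The interaction, fitted over all 12 libraries, met both thresholds for 4 of 14193 genes (0.0282%). Only *ifc-1* has a gene symbol of letters, a hyphen and a number, which the naming rule requires, and F55G11.4, Y51H7C.1 and WBGene00044439 are named because they complete the count. All 4 were among the genes called in wild type. *sams-1* itself stood at 13.2, 20.02 and 17.6 CPM at D7 and 163, 102 and 181 CPM at D1 in wild type, and at 35.7, 72.4 and 51.4 CPM at D7 and 228, 231 and 246 CPM at D1 in the libraries labelled *sams-1*. Its mRNA was not lower in the libraries that carry its name, and whether *sams-1* function was lost in them was not tested here. For its triplicate set the study reports higher *fat-7* in *sams-1* animals, and *sams-1* groups set apart from wild type in a principal component analysis. The libraries labelled *sams-1* are called by their label only.

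*ifc-1* stood at 0.478, 0.334 and 0.492 CPM at D7 and 17.05, 17.3 and 19.95 CPM at D1 in wild type, and at 20.1, 16.203 and 31.04 CPM at D7 and 26.3, 41.4 and 53.2 CPM at D1 in the libraries labelled *sams-1* (difference of the log2 fold changes -4.47, SE 0.53, adjusted p = 0.00669). The 3 wild-type D7 libraries lay below all others. F55G11.4, a protein-coding gene on chromosome IV of WBcel235 from 12973624 to 12975603, stood at 235.4, 237 and 123 CPM at D7 and 2.41, 1.13 and 2.59 CPM at D1 in wild type, and at 20.1, 14.9 and 22.9 CPM at D7 and 4.0998, 10.2 and 7.28 CPM at D1 in the libraries labelled *sams-1* (difference of the log2 fold changes 5.15, SE 0.56, adjusted p = 0.00508). Its D7 libraries lay above its D1 libraries under both labels, with the larger change in wild type. Y51H7C.1 stood at 43.3, 42.7 and 51.04 CPM at D7 and 3.17, 0.973 and 2.79 CPM at D1 in wild type, and at 2.47, 4.105 and 8.87 CPM at D7 and 119.9, 100.3 and 230.1 CPM at D1 in the libraries labelled *sams-1* (difference of the log2 fold changes 9.13, SE 0.72, adjusted p = 2.85e-04), with opposite signs under the 2 labels. WBGene00044439, annotated as a pseudogene, stood at 43.3, 32.5 and 50.4 CPM at D7 and 114.8, 145 and 86.8 CPM at D1 in wild type, and at 20.7, 17.9 and 33.6 CPM at D7 and 4.38, 3.33 and 1.35 CPM at D1 in the libraries labelled *sams-1* (difference of the log2 fold changes -4.43, SE 0.53, adjusted p = 0.00669). It was lower at D7 in wild type and higher at D7 under the *sams-1* label. Y51H7C.1 lies on chromosome II of WBcel235 from 1467727 to 1469630, and WBGene00044439 from 1459138 to 1461307 on the same chromosome, on the other strand.

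Of the 365 genes higher in wild type, 319 also had a positive log2 fold change in the libraries labelled *sams-1* and 131 passed an adjusted p of 0.01 there, while 1 passed in the opposite direction. Of the 270 lower, 230 had a negative one, 118 passed, and 5 passed in the opposite direction. In the same fit, the median change of the genes higher was 2.78 in wild type and 1.27 under the *sams-1* label, and that of the genes lower was -2.34 in wild type and -1.26 under the *sams-1* label. The genes were chosen on the wild-type values, so these medians are no test of a difference. The number of genes whose age change differs between genotype labels depends on single libraries. It was 1842 without replicate 1 of the D1 libraries labelled *sams-1*, 40 and 13 without wild-type D1 replicates 1 and 5, and 1 to 5 without any other library, and DESeq2 called 442.

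**Figure D5:**
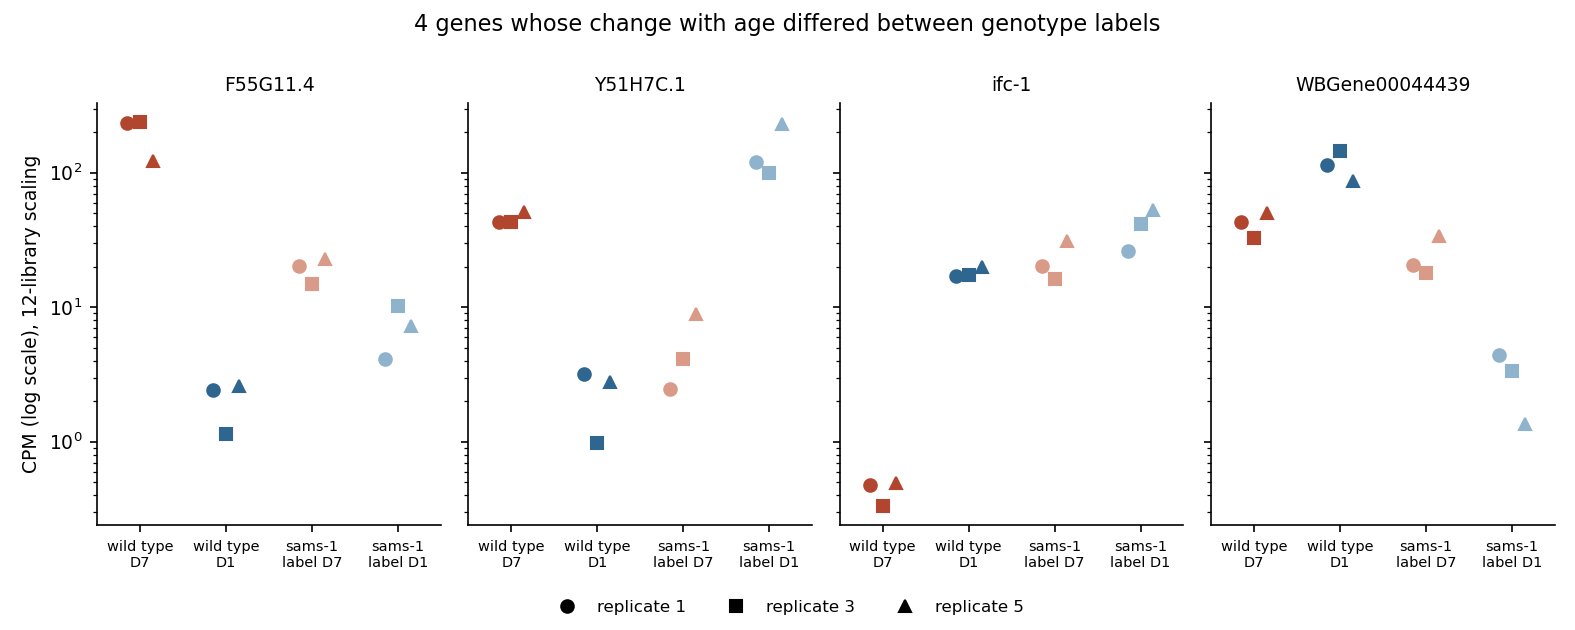
Each panel is 1 of the 4 genes whose change with age differed between genotype labels, with CPM scaled over 12 libraries on a log axis and 1 symbol for each library by replicate number. D7 stands left of D1 within each label, and *ifc-1* is below 1 CPM in the 3 wild-type D7 libraries only.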

How the data were processed

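Total RNA of whole animals was sequenced in 12 libraries, of which the 3 wild-type D7 and 3 wild-type D1 libraries were compared. From the reads the authors made expected counts and TPM per gene, 1 table per library, with RSEM 1.3.3 on the ws245 annotation. Trimmomatic 0.39 and STAR are also in their processing notes. No other statement of the build or of strand use was found. The labels name BGI and the paper Biostate AI as maker of the libraries. Deposited expected counts, at most 1.97% of them not whole in the wild-type libraries, were rounded. edgeR 4.0.16 was run with TMM factors, its default filter on low counts, quasi-likelihood tests and Benjamini-Hochberg adjustment over all genes tested, on the 6 libraries for age and on all 12 for the interaction. Every adjusted p in the text comes from these fits unless another tool is named. Calls required an adjusted p below 0.01, as in the study's methods, with a 2-fold minimum for the counts over all genes and no minimum for gene groups. Intervals and floors of 3 counts cover counting error only, at 95% confidence.

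Deposited TPM served for levels between genes and, as log2(TPM + 1), for a limma 3.58.1 alternative. Other alternatives were DESeq2 1.42.0, 4 other scalings, 2 other filters, a threshold of 0.05, all 12 libraries, a replicate block and leaving out each library. Fits were tested on simulated data. Of 46925 genes in each table, 46917 matched the Ensembl 115 annotation of WBcel235, and 24 listed symbols had no match in it. The 53 gene lists, 14 of them cell type markers, and the compared groups were chosen with earlier results of these data known. Genes were named by rule: those the study names, the 15 largest changes in each direction among called genes with 10 CPM or more, no overlap, a gene symbol of letters, a hyphen and a number, and at most 3 per family, the 2 members with the most counts and the 2 largest called changes of each list, the 10 highest TPM at each age, and up to 5 interaction genes in each direction with such a symbol and 10 CPM or more. Where a text count required another gene, it was named after its values were seen. Many genes that the rule takes are left out of the text. The replicates are stated to be independent, with no label of their own source.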

Additional observations from a re-analysis of the deposited data

Results flagged for a closer look

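For 4 genes the change with age differed between wild type and the libraries labelled *sams-1* by the edgeR interaction test over 12 libraries, and the differences are those of the wild-type change minus the *sams-1*-label change on the log2 scale. The difference was 5.15 for F55G11.4, 9.13 for Y51H7C.1, -4.47 for *ifc-1* and -4.43 for WBGene00044439. The number of such genes ran between 1 and 1842 when single libraries were left out, and the library behind the highest number was D1 replicate 1 of the libraries labelled *sams-1*. The part that this library or the mRNA level of *sams-1* has in these differences was not tested.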

How the results depend on the processing

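All 365 genes higher and all 270 lower kept their sign in every alternative that tested them, except that scaling on the muscle list left 219 of the 270 below 0 and limma 269. Counts moved more. Genes higher at D7 in wild type, 365 in edgeR, numbered 8484 when scaled on muscle genes, 602 by DESeq2 and 734 at an adjusted p below 0.05, and 46 to 600 with single libraries left out. Genes lower, 270, numbered 653 by DESeq2, 415 with all 12 libraries and 763 at 0.05, and 32 to 846 with libraries left out. With any fold, genes higher (415) numbered 8496 on muscle scaling, 851 by DESeq2, 1142 at 0.05 and 46 to 1146 with libraries left out. Genes lower (325) numbered 894 by DESeq2, 1175 at 0.05 and 32 to 1433 with libraries left out. The number of genes whose age change differs between genotype labels, 4, was 9 with DESeq2 size factors, 9 with library totals, 20 on muscle scaling, 31 with no filter, 442 by DESeq2, 2 with the replicate block, 158 at 0.05 and 1 to 1842 with libraries left out. The cause was not tested.

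Of named genes that were not called, the log2 fold change of *act-1* ran from -0.66 to 0.063, of *fat-7* from -0.52 to 0.36, of COX3 from -0.23 to 0.10, of *gld-1* from -0.029 to 0.10 and of *cbd-1* from -0.25 to 0.051 with libraries left out, with *gld-1* also at -0.0017. Whether the replicate numbers pair the libraries cannot be told from so few correlations. Same-numbered deviations correlated at 0.135, 0.0610 and 0.0263, and those of unlike numbers at -0.169 to 0.122. D7 replicate 3 correlated best with D1 replicate 5. The replicate block gave 396 higher and 377 lower. With 3 libraries a group and as few as 4505376 counts, genes with few counts pass only when their change is large.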
